A study of Mus musculus with 5 samples.

Results

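The subject is a set of 10 T cell genes, *Cd3d*, *Cd3e*, *Cd3g*, *Cd247*, *Lck*, *Lat*, *Cd2*, *Il7r*, *Cd4* and *Cd8a*, in RNAseq libraries of macrophages sorted from mouse aortas. They are 10 of the 55487 genes in the deposited table. The genes were chosen by their measured counts, since T cell markers were detected in some of these libraries. Their detection is therefore given as a description and not as a finding.

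The libraries were 2 labelled Zeb1WT/ApoeKO and 3 labelled Zeb1∆M/ApoeKO. Zeb1WT mice carried *Zeb1* fl/fl alleles, in which loxP sites flank exon 6, without Cre. Zeb1∆M mice carried the same alleles with Cre driven by *LysM* (*Lyz2*), a promoter used in myeloid cells in general and not in macrophages alone. All mice were male, lacked *Apoe* and were kept on chow for 8 weeks before 10 weeks of Western diet. Per the methods, cells from 3 mice were combined per genotype, so a library does not stand for a single mouse, and p-values measure only the spread between these libraries. The labels give the sort gate as CD45+ F4/80+ and the methods add CD11b. No T cell marker was part of either gate as described.

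T cells recognise peptides with a receptor made of an alpha and a beta chain, each joined from V, J and, for beta, D segments to a constant region. The receptor has no signalling tail of its own and is carried to the surface with the CD3 gamma, delta and epsilon chains and the zeta chain, encoded by *Cd3g*, *Cd3d*, *Cd3e* and *Cd247*. The kinase LCK, bound to the coreceptors CD4 or CD8, phosphorylates these chains, and the adaptor LAT passes the signal on. T cells are found in atherosclerotic plaques beside macrophages. *Cd4* and *Cd8a* are also expressed by some dendritic cells, *Lat* by mast cells and platelets, and *Cd2* by natural killer cells. In bulk libraries, fewer cells of a type and less RNA per cell cannot be told apart.

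T cell clones differ in the V segment they use and, most of all, in the junction where V joins D and J, which gene counts do not show. The germline ends of the V segments that were counted are shown here because the libraries with the highest counts of the 10 genes held different ones. Each run is the last 60 coding bases of an annotated transcript of the segment (GENCODE M21, GRCm38; for the alpha segments another annotated transcript runs a few bases further), read from the reference and not from these mice, with the codon of the conserved cysteine that opens the junction in capitals. The first sequence was from the segment counted in Zeb1∆M/ApoeKO replicate 2, the next was from replicate 3 of that genotype, *Trbv13-1* was shared by Zeb1∆M/ApoeKO replicate 3 and Zeb1WT/ApoeKO replicate 2, and the following 6 were from Zeb1WT/ApoeKO replicate 2. The last 2, alpha segments counted in Zeb1∆M/ApoeKO replicate 3, have the same letters and cannot be told apart by reads.
Trbv12-2 (chr6:41119305-41119364, plus strand): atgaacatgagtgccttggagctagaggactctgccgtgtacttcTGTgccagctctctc
Trbv31 (chr6:41557691-41557750, minus strand): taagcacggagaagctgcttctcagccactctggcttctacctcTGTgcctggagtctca
Trbv13-1 (chr6:41116409-41116468, plus strand): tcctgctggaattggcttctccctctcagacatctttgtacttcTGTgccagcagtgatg
Trbv15 (chr6:41141599-41141658, plus strand): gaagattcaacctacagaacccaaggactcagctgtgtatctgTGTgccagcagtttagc
Trbv2 (chr6:41047936-41047995, plus strand): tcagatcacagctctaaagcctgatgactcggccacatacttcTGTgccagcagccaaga
Trbv4 (chr6:41059827-41059886, plus strand): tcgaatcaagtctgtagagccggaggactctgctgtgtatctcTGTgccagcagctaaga
Trbv13-3 (chr6:41130526-41130585, plus strand): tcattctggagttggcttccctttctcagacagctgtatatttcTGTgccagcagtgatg
Trbv13-2 (chr6:41121773-41121832, plus strand): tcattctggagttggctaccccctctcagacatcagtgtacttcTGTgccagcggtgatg
Trbv20 (chr6:41188918-41188977, plus strand): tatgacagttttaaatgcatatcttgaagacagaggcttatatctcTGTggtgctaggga
Trav3d-3 (chr14:52972975-52973034, plus strand): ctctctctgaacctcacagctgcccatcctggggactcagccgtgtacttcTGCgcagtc
Trav3n-3 (chr14:53284112-53284171, plus strand): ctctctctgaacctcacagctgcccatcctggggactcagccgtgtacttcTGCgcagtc

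Values are RSEM expected counts, deposited as whole numbers, or CPM, counts scaled to the same library total. Totals ranged from 20118545 to 50649912 counts per library. A count of 0 was read against a floor of 3 counts, which was 0.0592 to 0.149 CPM in these libraries, and floors and intervals cover counting error only, because the ultra-low-input kit amplifies the cDNA by PCR. The libraries were sparse, since 18.5% to 51.4% of 21936 protein-coding genes had more than 3 counts. Zeb1∆M/ApoeKO replicate 1 stood apart, with the highest share over the floor (51.4%) but the lowest share with at least 100 counts (3.42%, against 7.09% to 18.6% in the others), and a summed level of 12 macrophage genes of 6700 CPM against 24100 to 33800 CPM in the others. The targeted gene *Zeb1* had 0 counts in 4 libraries and 22 in Zeb1∆M/ApoeKO replicate 1, so it did not check the genotype labels.

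The label of the cells was checked against their markers. *Lyz2*, the macrophage and granulocyte lysozyme, had 161607 to 869804 counts in the libraries, and *Adgre1*, which encodes F4/80, had 1068 to 38190. The summed level of the 12 macrophage genes was mostly that of *Lyz2*, which had 6630 to 29600 CPM. *Ptprc*, which encodes CD45, had 475 to 44796 counts. *Itgam*, which encodes CD11b, had 441 and 3074 counts in the Zeb1WT/ApoeKO libraries and 0, 33 and 1988 in the Zeb1∆M/ApoeKO libraries, so it was listed at 0 in Zeb1∆M/ApoeKO replicate 1. Of the whole list of 12 macrophage genes, 8 and 11 had at least 100 counts in the Zeb1WT/ApoeKO libraries and 3, 10 and 10 in the Zeb1∆M/ApoeKO libraries. Over the floor were 8 and 11 against 10, 11 and 10. *Cd68* and *C1qa*, named after their values were seen, were listed at 0 in Zeb1WT/ApoeKO replicate 1 and had 10 and 5 counts in Zeb1∆M/ApoeKO replicate 1, against at least 36172 and 48430 counts in the other 3 libraries.

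The 10 T cell genes were concentrated in 3 libraries. Zeb1WT/ApoeKO replicate 2 had 9 of the 10 genes over the floor, all 9 with at least 100 counts. Zeb1∆M/ApoeKO replicates 2 and 3 each had 5 over the floor and 4 with at least 100 counts. Zeb1WT/ApoeKO replicate 1 and Zeb1∆M/ApoeKO replicate 1 each had 3 over the floor, with 1 and 0 of at least 100 counts. Of all protein-coding genes, 18.6% reached 100 counts in Zeb1WT/ApoeKO replicate 2, 13.3% in Zeb1∆M/ApoeKO replicate 2 and 17.3% in its replicate 3. Zeb1WT/ApoeKO replicate 1 and Zeb1∆M/ApoeKO replicate 1 had 7.09% and 3.42%, so the same 3 libraries led over all protein-coding genes. Over the floor, the shares were 22.8%, 18.5% and 25.2% against 24.2% and 51.4%. Every one of the 9 detected genes had its highest CPM in Zeb1WT/ApoeKO replicate 2, and no gene was over the floor in all 5 libraries. By gene, 1 was over the floor in 1 library, 3 in 2 libraries, 2 in 3 libraries and 3 in 4 libraries. Nearest to the floor were *Cd247*, just over it with 4 counts in Zeb1∆M/ApoeKO replicate 3, and *Cd8a* and *Lat*, each with 3 counts in a library and so not over it.

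**Figure D1:**
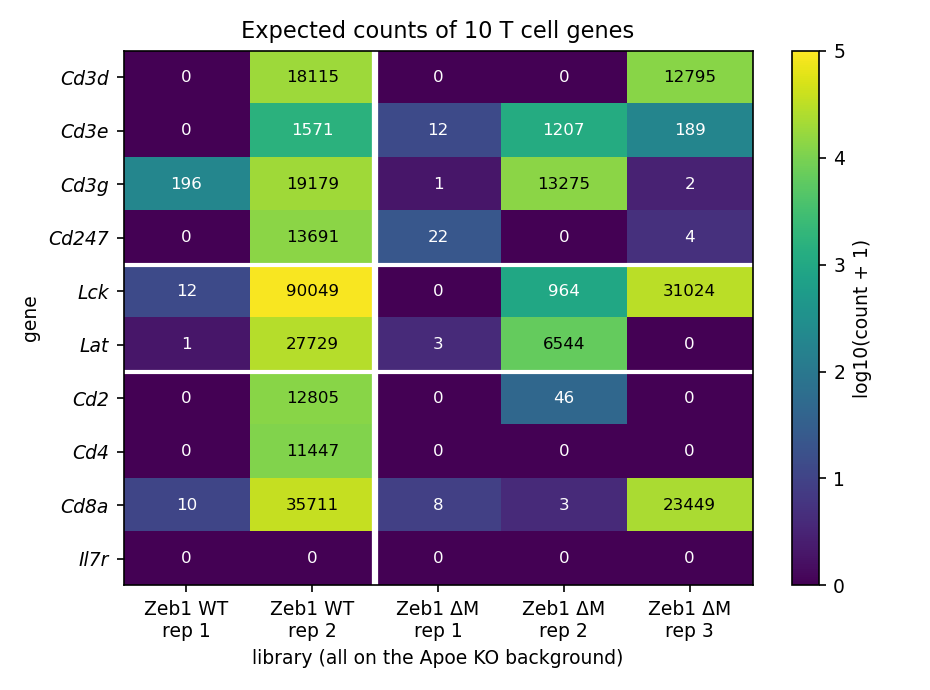
Expected counts of the 10 T cell genes (rows) in the 5 libraries (columns; "Zeb1 ΔM" is Zeb1∆M/ApoeKO and "Zeb1 WT" is Zeb1WT/ApoeKO), coloured by log10(count + 1), with the count printed in each cell and white lines between receptor chains, signalling proteins, surface proteins and the genotypes. Zeb1WT/ApoeKO replicate 2 is filled for 9 of the 10 genes, whereas Zeb1∆M/ApoeKO replicates 2 and 3 are each filled for 4 genes with at least 100 counts.

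Summed over the 10 genes, the counts were 219 and 230297 in the Zeb1WT/ApoeKO libraries and 46, 22039 and 67463 in the Zeb1∆M/ApoeKO libraries. The largest sum was 0.666% of its library (95% exact Clopper-Pearson interval 0.663 to 0.668%). The shares were 0.133% (0.132 to 0.134%) in Zeb1∆M/ApoeKO replicate 3 and 0.0616% (0.0608 to 0.0624%) in replicate 2. The remaining libraries were far lower, at 0.00109% (0.000949 to 0.00124%) in Zeb1WT/ApoeKO replicate 1 and 0.000189% (0.000138 to 0.000252%) in Zeb1∆M/ApoeKO replicate 1. The highest and the lowest libraries thus differed within as well as between genotypes.

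Among the receptor chains, the CD3 genes lie together on chromosome 9. *Cd3g* (44969572 to 44980431, minus strand) and *Cd3d* (44981786 to 44987339, plus strand) are read away from each other from starts 1355 bases apart, and *Cd3e* (44998740 to 45009627, minus strand) lies beside them. *Cd3d*, the delta chain, had 0 and 18115 counts in Zeb1WT/ApoeKO replicates 1 and 2 and 0, 0 and 12795 in Zeb1∆M/ApoeKO replicates 1 to 3. *Cd3g*, the gamma chain, had 196 and 19179 counts in the Zeb1WT/ApoeKO libraries and 1, 13275 and 2 in the Zeb1∆M/ApoeKO libraries. These neighbouring genes were therefore counted together in Zeb1WT/ApoeKO replicate 2, at 524 and 554 CPM, but apart in libraries of both genotypes, *Cd3g* without *Cd3d* in Zeb1WT/ApoeKO replicate 1 and Zeb1∆M/ApoeKO replicate 2 and *Cd3d* with 2 counts of *Cd3g* in Zeb1∆M/ApoeKO replicate 3.

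*Cd3e*, the epsilon chain, had 0 and 1571 counts in the Zeb1WT/ApoeKO libraries and 12, 1207 and 189 in the Zeb1∆M/ApoeKO libraries. It was the only receptor chain gene over the floor in every Zeb1∆M/ApoeKO library, but its highest level was low, at 45.4 CPM against 396 to 554 CPM for the other 3 chains in the same library. The count of *Cd3g* was 12.2 times that of *Cd3e* in Zeb1WT/ApoeKO replicate 2 and 11.0 times in Zeb1∆M/ApoeKO replicate 2. *Cd247* (chromosome 1, 165788681 to 165877277, plus strand), the zeta chain, had 0 and 13691 counts in the Zeb1WT/ApoeKO libraries and 22, 0 and 4 in the Zeb1∆M/ApoeKO libraries. Zeb1WT/ApoeKO replicate 2 thus held 99.8% of the CPM of *Cd247* summed over libraries, and was the single library in which all 4 receptor chain genes had at least 100 counts.

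The proximal signalling genes included *Lck*, which had the highest count of the set in any library. *Lck* (chromosome 4, 129548344 to 129573641, minus strand), the kinase that phosphorylates the CD3 chains, had 12 and 90049 counts in the Zeb1WT/ApoeKO libraries and 0, 964 and 31024 in the Zeb1∆M/ApoeKO libraries. *Lat* (chromosome 7, 126363824 to 126369570, minus strand), the membrane adaptor downstream of it, had 1 and 27729 counts in the Zeb1WT/ApoeKO libraries and 3, 6544 and 0 in the Zeb1∆M/ApoeKO libraries. The order of these genes was not constant, as the count of *Lck* was 3.25 times that of *Lat* in Zeb1WT/ApoeKO replicate 2 and 0.147 times in Zeb1∆M/ApoeKO replicate 2. In Zeb1∆M/ApoeKO replicate 3, *Lck* was counted at 613 CPM while *Lat* was listed at 0.

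The coreceptor genes also split by library. *Cd8a* (chromosome 6, 71373427 to 71379173, plus strand), the alpha chain of CD8, had 10 and 35711 counts in the Zeb1WT/ApoeKO libraries and 8, 3 and 23449 in the Zeb1∆M/ApoeKO libraries. *Cd4* (chromosome 6, 124864692 to 124888221, minus strand) had 11447 counts in Zeb1WT/ApoeKO replicate 2, which is 331 CPM, and was listed at 0 in the other 4 libraries. Zeb1WT/ApoeKO replicate 2 thus held both coreceptors, Zeb1∆M/ApoeKO replicate 3 held *Cd8a* without *Cd4*, and Zeb1∆M/ApoeKO replicate 2 held neither over the floor. *Cd8b1*, the partner chain that with *Cd8a* forms the CD8 of conventional T cells, had 0 and 42560 counts in the Zeb1WT/ApoeKO libraries and 0, 0 and 4439 in the Zeb1∆M/ApoeKO libraries. The *Cd8a* count was 0.839 times that of *Cd8b1* in Zeb1WT/ApoeKO replicate 2 and 5.28 times in Zeb1∆M/ApoeKO replicate 3.

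*Cd2* (chromosome 3, 101275899 to 101287939, minus strand), an adhesion receptor of T cells and natural killer cells, had 0 and 12805 counts in the Zeb1WT/ApoeKO libraries and 0, 46 and 0 in the Zeb1∆M/ApoeKO libraries. *Il7r* (chromosome 15, 9505788 to 9530176, minus strand), which encodes the alpha chain of the receptor for the survival cytokine interleukin 7, was listed at 0 in all 5 libraries. The floor allows up to 0.0592 to 0.149 CPM of *Il7r* in these libraries. *Il7r* was thus not detected, also in the library in which the other 9 genes reached 45.4 to 2600 CPM.

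Levels of different genes were compared per kilobase of annotated exons, in CPM per kb. In Zeb1WT/ApoeKO replicate 2 the order was *Lck* (889), *Lat* (290), *Cd3d* (288), *Cd8a* (284), *Cd2* (213), *Cd3g* (170), *Cd4* (82.1), *Cd247* (74.3) and *Cd3e* (11.1). In Zeb1∆M/ApoeKO replicate 2 the order was *Cd3g* (114), *Lat* (66.1), *Lck* (9.2), *Cd3e* (8.27) and *Cd2* (0.739), and in Zeb1∆M/ApoeKO replicate 3 it was *Lck* (209), *Cd3d* (139), *Cd8a* (127), *Cd3e* (0.915) and *Cd247* (0.0148). *Lck* led in 2 of these libraries and was behind *Cd3g* and *Lat* in the other. Each order rests on a single library and has no replicate error, so neighbours such as *Lat*, *Cd3d* and *Cd8a* in Zeb1WT/ApoeKO replicate 2 cannot be ranked.

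Genes with many counts in a library and few or none in another were common in these data. Among the 4421 genes that reached 100 counts in Zeb1WT/ApoeKO replicate 2, 53.7% had 3 counts or fewer in Zeb1WT/ApoeKO replicate 1, and 37.5%, 48.0% and 35.4% had so few in Zeb1∆M/ApoeKO replicates 1, 2 and 3. Of the 9 T cell genes with at least 100 counts in that library, 6 had 3 counts or fewer in Zeb1WT/ApoeKO replicate 1, and 6, 4 and 4 in the Zeb1∆M/ApoeKO replicates. These counts stand beside the shares over all genes as a description, with no test.

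The comparison the study was designed for is that of the genotypes, which asks what loss of *Zeb1* in myeloid cells changes in plaque macrophages. With edgeR's quasi-likelihood test, 8 of the 10 genes passed the filter on low counts, all but *Cd4* and *Il7r*, and 0 were called at a Benjamini-Hochberg adjusted p of 0.05. This stands against a background of 0% of 7905 genes tested, of which 86 had an unadjusted p under 0.05, none of them among the 8. The log2 fold changes of the 8 genes (Zeb1∆M/ApoeKO minus Zeb1WT/ApoeKO) were all below 0, with a median of −2.17 beside 0.78 over all genes tested. They ranged from −8.99 (standard error 6.16) for *Cd2* to −1.05 (standard error 4.53) for *Cd3e*, each with an adjusted p of 1. *Lck* lay between them at −2.61 (standard error 3.11) and *Cd8a* at −1.73 (standard error 3.63).

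These signs rested on Zeb1WT/ApoeKO replicate 2. Without that library, all 8 log2 fold changes were above 0, with a median of 8.87 beside 6.32 over all genes tested, and again 0 were called. Levels of the genotypes overlapped for each of the 8 genes tested, so 0 of 8 separated the genotypes, beside 887 of 7905 genes tested (11.2%). Without Zeb1WT/ApoeKO replicate 2 only 1 Zeb1WT/ApoeKO library was left, which is assumed to vary like the others.

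**Figure D2:**
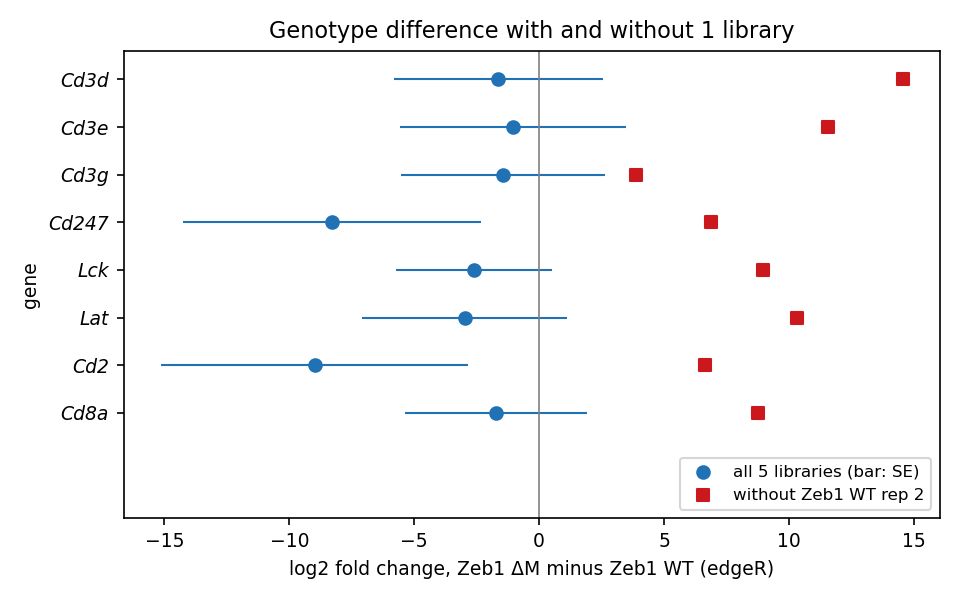
Log2 fold change of each of the 8 T cell genes tested (x axis, Zeb1∆M/ApoeKO minus Zeb1WT/ApoeKO, edgeR) from all 5 libraries (circles, with bars for the standard error) and without Zeb1WT/ApoeKO replicate 2 (squares). All circles lie below 0, between −8.99 and −1.05, and all squares lie above 0, between 3.87 and 14.55.

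The 10 genes summed to a mean of 3330 ± 4700 CPM for Zeb1WT/ApoeKO (SD, n = 2) against 650 ± 666 CPM for Zeb1∆M/ApoeKO (SD, n = 3). The difference of −2680 CPM was smaller than the spread between the Zeb1WT/ApoeKO libraries, and it was 639 CPM without Zeb1WT/ApoeKO replicate 2 and −6010 CPM without Zeb1WT/ApoeKO replicate 1. Gene by gene, *Lck* had 1300 ± 1840 CPM (SD, n = 2) against 213 ± 346 CPM (SD, n = 3), *Cd8a* had 516 ± 730 against 154 ± 267 CPM, and *Cd3g* had 282 ± 385 against 124 ± 214 CPM. A two-sided exact permutation test doubled the smaller tail, so that 2 libraries against 3 could not go below p = 0.2. By this test, the p of the 9 detected genes ranged from 0.4 to 0.8. The genotype difference was therefore within the spread between libraries for each of them.

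DESeq2 with default options, which is what the paper's methods name for its own comparison, called 790 of the 6519 genes to which it gave an adjusted p (12.1%). It gave an adjusted p to 4 of the 10 T cell genes and called 1, *Cd4* (adjusted p = 1.16e-08), which was counted in Zeb1WT/ApoeKO replicate 2 alone. The call thus came from a single library, and edgeR did not test *Cd4* since it failed the filter on low counts. Without Zeb1WT/ApoeKO replicate 2, an alternative chosen after seeing the data, DESeq2 called 1886 of 10463 genes with an adjusted p (18%) and 1 of the 7 T cell genes with one, *Cd3d* (adjusted p = 0.000392), which was then counted in Zeb1∆M/ApoeKO replicate 3 alone.

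The wider T cell programme was read from 48 other genes in 4 lists. In all, 26 passed the filter and 0 were called by edgeR, with 9 log2 fold changes above 0, 17 below 0 and a median of −1.84. Their summed level was 150 and 8600 CPM in the Zeb1WT/ApoeKO libraries and 24.7, 2410 and 3070 CPM in the Zeb1∆M/ApoeKO libraries, so the 3 libraries with the highest levels of the 10 genes were also those with the highest levels of these. Of the 48 genes, 27 had at least 100 counts in some library, and these were highest in Zeb1WT/ApoeKO replicate 2 for 18, in Zeb1∆M/ApoeKO replicate 2 for 4 and in Zeb1∆M/ApoeKO replicate 3 for 5. Zeb1∆M/ApoeKO replicate 1 had the most genes over the floor, 29 against 10 to 26, but only 1 with at least 100 counts.

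The constant regions were those of the alpha and beta chains. *Trac*, the alpha constant region, had 0 and 7302 counts in the Zeb1WT/ApoeKO libraries and 7, 0 and 4411 in the Zeb1∆M/ApoeKO libraries. *Trbc1* had 0 and 22863 counts against 0, 1541 and 12227, and *Trbc2* had 7 and 40610 against 0, 5726 and 13499. These beta constant regions share an identical stretch of 259 bases, longer than a read of 75 bases, so the split of counts between them is uncertain. Zeb1∆M/ApoeKO replicate 2 thus had beta constant regions without *Trac*. *Trdc*, of the delta chain, had 15 counts in Zeb1∆M/ApoeKO replicate 1 and 0 to 2 in the other libraries, and the 3 gamma constant regions were listed at 0 everywhere, so gamma delta receptors were at or near 0 in the 3 libraries that led in the 10 genes.

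Among the receptor signalling genes, 11 of 16 were tested and 0 were called, with 5 log2 fold changes above 0 and 6 below 0 (median −0.73). *Lcp2*, the adaptor SLP-76 that binds the LAT complex and is also found in myeloid cells and platelets, had 0 and 20060 counts in the Zeb1WT/ApoeKO libraries and 17, 30543 and 18642 in the Zeb1∆M/ApoeKO libraries. *Skap1*, an adaptor for integrin activation, had 1 and 14030 against 3, 2288 and 15834 counts, and *Cd6*, a surface modulator of the receptor, had 1 and 23500 against 20, 1 and 0. *Lcp2* and *Skap1* were thus counted over the floor in all 3 libraries that led in the 10 genes, and *Cd6* in 1 of them. *Zap70*, the kinase recruited to the phosphorylated CD3 chains and named here after its values were seen, had at most 2 counts in any library, although *Lck* reached 90049.

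Among the costimulation and surface genes, 7 of 15 were tested and 0 were called, with 4 log2 fold changes above 0 and 3 below 0 (median 0.39). *Cd96*, a receptor of T cells and natural killer cells, had 17636 counts in Zeb1WT/ApoeKO replicate 2 and 0 elsewhere. Of the 48 other genes, DESeq2 gave an adjusted p to 22 and called 2, *Cd96* (adjusted p = 8.54e-09) and *Fyn* (adjusted p = 0.00415), beside 12.1% of all genes with one. Without Zeb1WT/ApoeKO replicate 2 it called 10 of 26, beside 18% of all genes. *Fyn*, a kinase of the same family as LCK that is expressed in many cell types, had 0 counts in both Zeb1WT/ApoeKO libraries and 20, 632 and 12989 in the Zeb1∆M/ApoeKO libraries, so the genotypes did not overlap. Among the 26 other T cell genes tested with edgeR this held for *Fyn* alone, beside 887 of 7905 genes tested (11.2%). The adjusted p of *Fyn* from edgeR was 1.

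Of the 10 transcription factors, 5 were tested, 0 were called, and all 5 log2 fold changes were below 0 (median −4.51). The median over all genes tested was 0.78, and each of the 5 had its highest CPM in Zeb1WT/ApoeKO replicate 2. *Ets1* had 4 and 13867 counts in the Zeb1WT/ApoeKO libraries and 43, 0 and 2475 in the Zeb1∆M/ApoeKO libraries, and *Bcl11b*, required for T cell identity, had 0 and 10992 against 16, 3 and 983. The summed level of the 10 factors was 3.08 and 1370 CPM in the Zeb1WT/ApoeKO libraries and 5.33, 1.62 and 109 CPM in the Zeb1∆M/ApoeKO libraries. In Zeb1∆M/ApoeKO replicate 2 the factors were thus as low as in the libraries with the fewest counts of the 10 genes, while the 10 T cell genes summed to 616 CPM.

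The receptor segments were counted as genes of their own, 258 in the table. In all, 0 and 25 segments were over the floor in the Zeb1WT/ApoeKO libraries and 3, 1 and 5 in the Zeb1∆M/ApoeKO libraries. Zeb1WT/ApoeKO replicate 2 had 7 beta V segments over the floor, led by *Trbv15* (885 counts), *Trbv2* (759), *Trbv4* (676), *Trbv13-3* (528) and *Trbv13-2* (501). Zeb1∆M/ApoeKO replicate 2 had a single segment, *Trbv12-2*, with 2027 counts, and Zeb1∆M/ApoeKO replicate 3 had *Trbv31* (670 counts), *Trbv13-1* (161) and *Trbv16* (7). These libraries therefore drew on different beta V segments, and *Trbv13-1*, with 378 counts in Zeb1WT/ApoeKO replicate 2, was the single beta V segment over the floor in 2 libraries. *Trbv13-1*, *Trbv16* and *Trbv20* (359 counts in Zeb1WT/ApoeKO replicate 2) were named after their values were seen.

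Alpha V segments over the floor numbered 0 and 18 in the Zeb1WT/ApoeKO libraries and 3, 0 and 2 in the Zeb1∆M/ApoeKO libraries. Many are near-identical copies that share reads, and grouped by an identical stretch of at least 75 bases, the 18 segments of Zeb1WT/ApoeKO replicate 2 formed 9 families. *Trav14-1* (855 counts), *Trav12-3* (670) and *Trav7-3* (472) led in that library. The 2 segments of Zeb1∆M/ApoeKO replicate 3, *Trav3d-3* and *Trav3n-3*, had 398 counts each and are identical over all 427 bases of their annotated exons, of which the ends are printed above, so they count as 1 family. The same grouping left all 7 beta V segments of Zeb1WT/ApoeKO replicate 2 separate. V segments of the delta and gamma chains were at or under the floor in every library. J segments of the gamma chain and J and D segments of the alpha and beta chains had 0 counts throughout. For alpha and beta this held also where V segments and constant regions were counted, so a 0 of a J or D segment was not read as absence. How many cells or clones these counts came from was not measured.

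**Figure D3:**
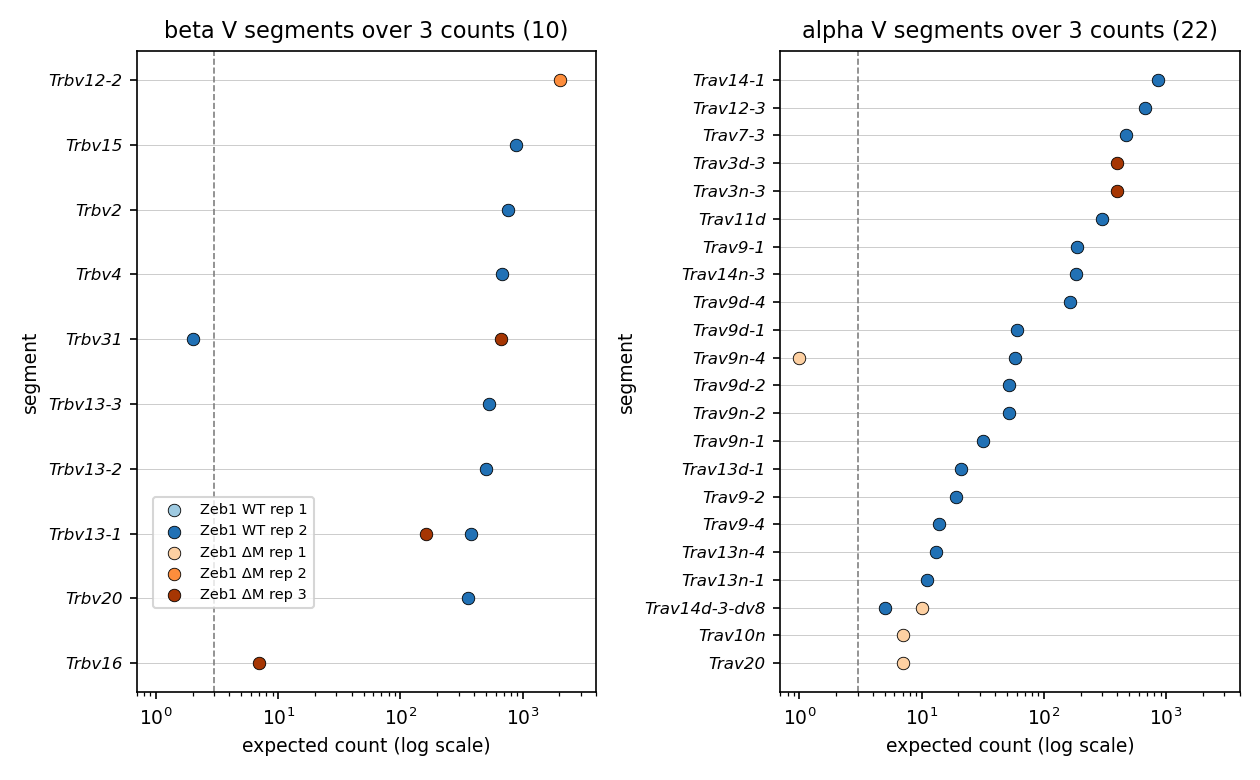
Expected counts (x axis, log scale) of the 10 beta V segments (left) and 22 alpha V segments (right) with more than 3 counts in any library, 1 point per library (counts of 0 not drawn, so that Zeb1WT/ApoeKO replicate 1 has no point), with the dashed line at the floor of 3 counts. Most points belong to Zeb1WT/ApoeKO replicate 2, *Trbv12-2* belongs to Zeb1∆M/ApoeKO replicate 2 alone, and only *Trbv13-1* and *Trav14d-3-dv8* are over the floor in 2 libraries.

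Markers of other cells also varied between the same libraries, although a gate of CD45+ CD11b+ F4/80+ cells, as in the methods, would remove most lymphocytes and mast cells. Of 10 natural killer and innate lymphoid genes, 2 and 0 were over the floor in the Zeb1WT/ApoeKO libraries and 3, 1 and 5 in the Zeb1∆M/ApoeKO libraries, with summed levels of 1140 and 0.0578 CPM against 1.97, 0.14 and 1520 CPM. *Nkg7*, a cytotoxic granule gene of natural killer cells and CD8 T cells, had 27226 counts in Zeb1∆M/ApoeKO replicate 3 and 0 in the other libraries. *Gzma*, which encodes granzyme A, had 22954 and 0 counts in the Zeb1WT/ApoeKO libraries and 0, 0 and 26062 in the Zeb1∆M/ApoeKO libraries, and *Prf1*, which encodes perforin, had 14 and 0 against 15, 0 and 17951. *Klrd1* and *Xcl1* had 4522 and 1466 counts in Zeb1∆M/ApoeKO replicate 3 and 0 elsewhere, while *Ncr1* and *Klrb1c* had at most 10 and 5 counts in any library (of these genes, all but *Nkg7* were named after their values were seen). The level of this list did not follow that of the 10 T cell genes, since it was high in Zeb1WT/ApoeKO replicate 1, through *Gzma* at 1140 CPM, and in Zeb1∆M/ApoeKO replicate 3, and low in Zeb1WT/ApoeKO replicate 2 and Zeb1∆M/ApoeKO replicate 2.

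Of 10 B cell genes, 1 to 4 were over the floor, with summed levels of 225 and 563 CPM in the Zeb1WT/ApoeKO libraries and 4.06, 637 and 1440 CPM in the Zeb1∆M/ApoeKO libraries. *Ighm*, the immunoglobulin mu heavy chain, made up nearly all of this, with 4513 and 19471 counts against 8, 22785 and 73037, and it was higher in the 3 libraries that led in the 10 genes than in the others. The receptor genes *Cd79a* and *Cd79b*, named after their values were seen, were listed at 0 throughout. Of 10 dendritic cell genes, 1 to 8 were over the floor, and *Cd209a*, a lectin of monocyte-derived dendritic cells, had 21805 counts in Zeb1∆M/ApoeKO replicate 3 and at most 13 elsewhere. The dendritic cell list summed to 4.13 and 139 CPM in the Zeb1WT/ApoeKO libraries and 4.19, 0.196 and 431 CPM in the Zeb1∆M/ApoeKO libraries. Of 8 mast cell genes, 0 to 3 were over the floor, with summed levels of 0 to 55.6 CPM, led by *Hdc*, the enzyme that makes histamine, while *Cpa3*, *Mcpt4*, *Ms4a2* and *Fcer1a*, also named after their values were seen, were listed at 0 in all libraries. The part of any of these cells in the counts of the 10 genes was not tested.

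**Figure D4:**
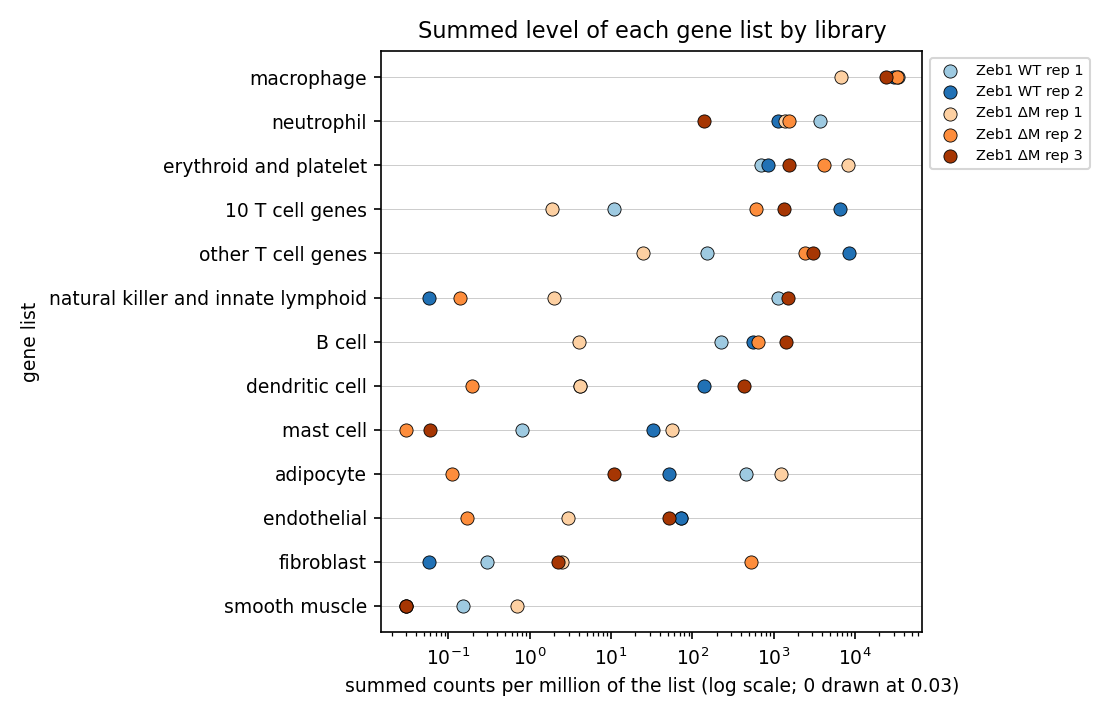
Summed CPM of each gene list (rows) in each library (points; x axis on a log scale, with 0 drawn at 0.03). The 10 T cell genes and the 48 other T cell genes are highest in Zeb1WT/ApoeKO replicate 2 (6660 and 8600 CPM), followed by Zeb1∆M/ApoeKO replicates 3 and 2. The macrophage list, mostly *Lyz2*, lies between 24100 and 33800 CPM in every library but Zeb1∆M/ApoeKO replicate 1.

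The profile over the 5 libraries that the summed 10 genes took was taken most closely by genes outside the T cell lists. By the mean absolute difference in centred log2 CPM over 5 libraries, the nearest of 7332 genes were *Dram2* (0.25), *Pabpn1* (0.44), *Lrmp* (0.51), *Ecm1* (0.57) and *Nckap1l* (0.6). *Dram2* had 4 and 3926 counts in the Zeb1WT/ApoeKO libraries and 0, 273 and 1184 in the Zeb1∆M/ApoeKO libraries. Only 27 of the 48 other T cell genes were among the 7332 genes compared, so most near genes would lie outside the lists in any case. The nearest of the 27 were *Skap1* (rank 51, difference 1.06), *Themis* (98), *Trbc2* (173) and *Trbc1* (243), and the farthest was *Cd69* (7093). *Themis* and *Cd69* were named after their values were seen. Whether these genes lay nearer than others was not tested.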

How the data were processed

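The authors mapped paired-end reads (75 bases) to GRCm38 with STAR 2.5.3a and deposited expected counts from RSEM 1.3.0, given as whole numbers and not normalized, for 5 libraries made with SMART-Seq v4. Aligner and quantifier versions are from the submitters' processing notes. The cDNA was amplified from few cells and the counts carry no molecular identifiers.

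Counts were tested with edgeR 4.0.16 in R 4.3.3 (filterByExpr with a minimum count of 10, TMM, quasi-likelihood test of genotype, Benjamini-Hochberg adjustment over 7905 genes). Genotypes came from the labels. DESeq2 1.42.0 with default options, the tool named in the paper's methods, was an alternative. So were RLE factors, no filter, the replicate number as a block and each library left out. Coordinates, exon lengths and V segments are from GENCODE M21, which all 10 genes matched. The edgeR test was also run on simulated counts, of which the outcome is not reported here. A prior count of 2 was added for log2 CPM.

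The 10 genes and the lists (other T cell genes, receptor segments, markers of other cells) were chosen with earlier results of these data known. Named genes were the 10 genes, *Trac*, *Trbc1*, *Trbc2*, *Trdc*, the 3 highest of each other T cell list, 10 segments, the sort and check genes, the highest gene of each marker list and the 5 nearest profiles. A few genes that this rule names are not reported here. Figures used matplotlib 3.10.9.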

Additional observations from a re-analysis of the deposited data

How the results depend on the processing

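With edgeR, 0 of all genes, 0 of the 10 genes and 0 of the 48 other T cell genes were called with RLE factors, no filter, the replicate block or any library left out (range 0 to 0), with 105, 173 and 7 genes at an unadjusted p under 0.05 under the first 3 and 18 to 123 without a library. Of genes with an adjusted p, DESeq2 called 790 of 6519 in all (12.1%), 1 of 4 of the T cell genes and 2 of 22 of the other T cell genes. Without Zeb1WT/ApoeKO replicate 2 it called 1886 of 10463 (18%), 1 of 7 and 10 of 26. The cause of the difference between tools was not tested.

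Replicate numbers 1 and 2 occur in both genotypes but nothing ties them to shared mice or batches, and the differences of replicate 1 minus 2 correlated across genes at 0.18 between genotypes, which are 2 pairs. Under the replicate block *Cd3e* turned from −1.05 to 3.0 on the log2 scale, *Cd3d* moved from −1.63 to −16.19, *Lck* from −2.61 to −6.86, *Cd8a* from −1.73 to −6.40 and *Lat* from −2.98 to −0.02, and the median of the 8 genes from −2.17 to −5.17. Each adjusted p stayed at 1 and no call changed.

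Of 76 alternative log2 fold changes of the 8 genes tested, 17 reversed, 16 of them without Zeb1WT/ApoeKO replicate 2. Without it, edgeR and then DESeq2 gave 14.55 and 24.62 for *Cd3d*, 11.56 and 10.02 for *Cd3e*, 3.87 and 3.19 for *Cd3g*, 6.86 and 6.13 for *Cd247*, 8.96 and 8.22 for *Lck*, 10.33 and 9.79 for *Lat*, 6.65 and 5.09 for *Cd2*, and 8.77 and 8.03 for *Cd8a*. With edgeR and another library left out, the lowest and the highest values were −2.50 and −0.95 for *Cd3d*, −3.21 and −0.54 for *Cd3e*, −12.16 and −0.87 for *Cd3g*, −9.59 and −7.55 for *Cd247*, −6.86 and −1.99 for *Lck*, −3.87 and −2.40 for *Lat*, −9.89 and −8.41 for *Cd2*, and −10.27 and −1.05 for *Cd8a*. Fitted values of genes near 0 in a genotype depend on the prior count and are no bounds. The median of all genes moved with the setting too, from 0.78 to 1.24 with RLE factors and 2.54 with no filter, where the medians of the T cell genes were −1.99 and −2.10.

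The summed CPM difference ranged from −6010 without Zeb1WT/ApoeKO replicate 1 to 639 without replicate 2, and was −2720 with TMM and −2120 with DESeq2 size factors. In Zeb1∆M/ApoeKO replicate 1, 5 of the 10 genes had more than 0 counts, 0 more than 1 CPM and 0 at least 100 counts (added after seeing the data), and 9 receptor segments had more than 0 and 0 more than 10 counts. In Zeb1WT/ApoeKO replicate 1, 1 gene had more than 1 CPM and 1 at least 100 counts. In Zeb1∆M/ApoeKO replicate 2, 2 segments had more than 0 counts.

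The limits are 2 libraries against 3, an edgeR common dispersion of 6.44, and amplified cDNA in which genes are often counted in 1 library and at 0 in another. Genotype differences of the 10 genes could not be told apart from differences between libraries.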

Other observations

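Lists not described above also varied by library. Of 10 neutrophil genes, 3 to 6 were over the floor, with 3710 and 1130 CPM in the Zeb1WT/ApoeKO libraries and 1390, 1550 and 138 CPM in the Zeb1∆M/ApoeKO libraries, and the highest count was that of *S100a8*. This order was not that of the T cell genes, since Zeb1∆M/ApoeKO replicate 3 was the lowest. Among 8 erythroid and platelet genes, *Pf4*, the platelet chemokine that macrophages can also express, had 2997 to 147665 counts, and the list summed to 693 and 855 CPM against 8150, 4130 and 1560 CPM. The haemoglobin gene *Hba-a2*, named after its values were seen, had 133027 counts in Zeb1∆M/ApoeKO replicate 1 and 0 in the others. Fibroblast genes were low but for *Dcn*, a matrix proteoglycan, with 19005 counts in Zeb1∆M/ApoeKO replicate 2 and at most 1 elsewhere, and this list summed to 0.0578 to 2.46 CPM in the other 4 libraries and to 531 CPM in that one.

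The adipocyte list summed to 456 and 51.9 CPM in the Zeb1WT/ApoeKO libraries and 1250, 0.112 and 11.0 CPM in the Zeb1∆M/ApoeKO libraries, nearly all from *Fabp4*, which macrophages also express, except in Zeb1∆M/ApoeKO replicate 2, where *Fabp4* was listed at 0. Endothelial genes summed to 0.168 to 73.0 CPM, from *Pecam1* in Zeb1WT/ApoeKO replicate 2 (2487 counts) and Zeb1∆M/ApoeKO replicate 3 (2628 counts) and from *Kdr*, named after its values were seen, in Zeb1WT/ApoeKO replicate 1 (1455 counts). Smooth muscle genes, led by *Myh11* with 11 counts in Zeb1∆M/ApoeKO replicate 1, summed to at most 0.698 CPM. *Apoe*, deleted in both genotypes, had 0 to 86 counts.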
